A study of Mus musculus with 2 samples.

Results

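Microexons are very short internal exons. Here they were taken as the exons of the deposited Ensembl 65 exon table (mouse assembly mm9) that are 3 to 27 bases long and lie between other exons in at least 1 annotated transcript. The rule gave 2892 exons in 2004 genes, out of 192346 internal exons and 351001 exons of any kind. The data were RNA-seq libraries from the cerebellum of C57BL/6J mice aged 8 weeks, from littermates of both sexes whose tissue was pooled. There was 1 group of 2 libraries, labelled biological replicates 1 and 2, that share 1 donor record and had no treatment, other strain or other tissue beside them. Both were stranded paired-end libraries, made from polyadenylated RNA above 200 nucleotides after depletion of ribosomal RNA, with spike-in controls. Nothing in the labels says that the libraries came from separate animals, so the spread between them may be technical, and no condition was tested. The word neural in the usual name of these exons could not be tested either, because no other tissue was measured.

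When a microexon is included, it adds a few amino acids to a protein, or shifts its reading frame when its length is not a multiple of 3. In neurons many such exons are switched on by the splicing factors Srrm4 and Srrm3, which act through the intron just upstream, while Ptbp1 represses many of them and Rbfox and Nova proteins act on others. The proteins concerned are known to work at synapses, in the cytoskeleton, in vesicle traffic and in gene regulation.

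The sequences below are those of coding microexons on which the results turn, written 5′ to 3′ in the sense direction, with the microexon in capitals and the 15 bases of the neighbouring exons on each side in lower case. They come from GENCODE M21 transcripts, and the positions are on mm10. The deposited junctions are on mm9, so exons were matched by gene and by the lengths of the exon and its introns, never by position. A match was found for 740 of the 752 microexons that had reads on both sides, as defined further on. The opening set shows a kinase insert (Src), a histone demethylase insert (Kdm1a), 2 deeply covered exons (Cltc, Uchl1) and a pair of Kif1a exons that sit between the same neighbouring exon sequences.
Src exon of 18 bases (chr2:157458843-157458860, plus strand): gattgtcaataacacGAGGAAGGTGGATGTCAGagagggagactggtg
Kdm1a exon of 12 bases (chr4:136563438-136563449, minus strand): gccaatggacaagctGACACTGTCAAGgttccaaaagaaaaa
Cltc exon of 21 bases (chr11:86701061-86701081, minus strand): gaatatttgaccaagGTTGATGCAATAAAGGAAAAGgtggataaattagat
Uchl1 exon of 12 bases (chr5:66676436-66676447, plus strand): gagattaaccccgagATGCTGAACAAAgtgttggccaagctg
Kif1a exon of 24 bases (chr1:93026832-93026855, minus strand): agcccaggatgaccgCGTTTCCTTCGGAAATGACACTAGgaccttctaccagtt
Kif1a exon of 27 bases (chr1:93034546-93034572, minus strand): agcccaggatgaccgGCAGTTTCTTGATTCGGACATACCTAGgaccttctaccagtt

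The next set shows exons of equal length in related genes, to be compared by eye with the levels given later. The 24-base exons of Cpeb2, Cpeb3 and Cpeb4 share 18 to 21 bases pair by pair. Those of Ptprd and Ptprs share 11 of 12 bases, and those of Adgrl1 and Adgrl3 share 13 of 15.
Cpeb2 exon of 24 bases (chr5:43268869-43268892, plus strand): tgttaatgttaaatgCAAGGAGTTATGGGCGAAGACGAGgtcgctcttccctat
Cpeb3 exon of 24 bases (chr19:37105791-37105814, minus strand): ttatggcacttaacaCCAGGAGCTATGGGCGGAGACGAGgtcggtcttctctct
Cpeb4 exon of 24 bases (chr11:31918801-31918824, plus strand): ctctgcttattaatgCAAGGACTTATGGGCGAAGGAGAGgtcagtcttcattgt
Ptprd exon of 12 bases (chr4:76054589-76054600, minus strand): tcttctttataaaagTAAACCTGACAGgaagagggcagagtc
Ptprs exon of 12 bases (chr17:56421833-56421844, minus strand): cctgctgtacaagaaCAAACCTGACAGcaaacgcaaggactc
Adgrl1 exon of 15 bases (chr8:83926262-83926276, plus strand): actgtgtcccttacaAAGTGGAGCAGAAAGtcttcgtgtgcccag
Adgrl3 exon of 15 bases (chr5:81509724-81509738, plus strand): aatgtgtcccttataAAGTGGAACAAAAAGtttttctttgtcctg

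The last set holds the teneurin exons, which occur at 2 places in the family. Tenm3 and Tenm4 share 24 of 27 bases at the one and 20 of 21 at the other.
Tenm3 exon of 27 bases (chr8:48313238-48313264, minus strand): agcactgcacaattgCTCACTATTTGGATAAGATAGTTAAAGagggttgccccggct
Tenm4 exon of 27 bases (chr7:96805105-96805131, plus strand): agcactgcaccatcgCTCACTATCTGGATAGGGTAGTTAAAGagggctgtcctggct
Tenm1 exon of 21 bases (chrX:42648394-42648414, minus strand): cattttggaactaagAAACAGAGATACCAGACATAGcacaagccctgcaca
Tenm2 exon of 21 bases (chr11:36054926-36054946, minus strand): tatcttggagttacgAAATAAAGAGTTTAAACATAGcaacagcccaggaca
Tenm3 exon of 21 bases (chr8:48287133-48287153, minus strand): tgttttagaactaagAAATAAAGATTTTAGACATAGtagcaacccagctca
Tenm4 exon of 21 bases (chr7:96854717-96854737, plus strand): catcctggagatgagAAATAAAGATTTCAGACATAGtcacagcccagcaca

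Inclusion was measured from the deposited splice junction table, which holds 1125475 junctions with 39145559 reads in replicate 1 and 38232764 in replicate 2. Inclusion is the mean of the reads joining the exon to its upstream and its downstream neighbours, divided by that mean plus the reads of junctions that skip the exon. An exon counted as measured with at least 20 such reads over both replicates, as alternatively spliced at 10 to 90% inclusion, as mostly skipped below 10% and as mostly included above 90%. Of the 2892 microexons, 1305 were measured, 358 had an inclusion read but too few reads, and 1229 had no inclusion read at all. The annotation gives 584 of the 2892 no pair of introns of at least 50 bases, so that some of these short entries are not microexons in the usual sense, and 182 of the 584 were among the measured ones. Brackets give 95% exact (Clopper-Pearson) intervals of the pooled reads, which cover counting error only.

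Among the 1305 measured microexons, 341 (26.1%) were alternatively spliced, 123 were mostly skipped and 841 were mostly included. The same rule called 5.31% of internal exons of 28 to 300 bases alternatively spliced. The measured set, though, held 553 microexons whose reads came from 1 side only or differed more than 4-fold between the sides, and 416 of these 553 share a splice site with another annotated exon, so that their reads may belong to that exon. A stricter set was therefore added after the data were seen. It needs at least 5 reads on each side and sides within 4-fold of each other, and it holds 752 microexons in 624 genes. Of these, 250 in 218 genes were alternatively spliced, which is 33.2% (Wilson 95% interval 29.97 to 36.7), against 4.73% of the longer exons held to the same rule. Another 42 (5.59%) were mostly skipped, against 0.595% of the longer exons, and 460 were mostly included, 249 of them with no skipping read. The median inclusion was 97.3%, and the alternatively spliced exons were a minority of this set. Entry to the set needs inclusion reads on each side, so rarely included exons enter only at greater depth. The mostly skipped ones had at least 67 reads, against at least 20 for the mostly included ones. The 1229 microexons with no inclusion read cannot enter, so the median and the shares hold for this set only.

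**Figure D1:**
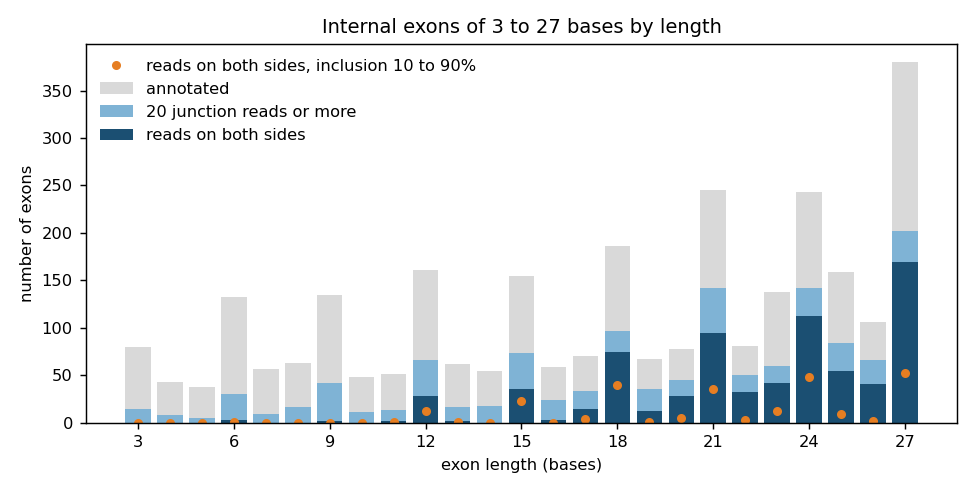
Number of internal exons (y axis) at each length from 3 to 27 bases (x axis): annotated (grey), with 20 junction reads or more (light blue) and with reads on both sides (dark blue), and, as orange points, those with reads on both sides and inclusion of 10 to 90%. Lengths divisible by 3 stand above their neighbours, as with the 169 exons of 27 bases against 41 of 26 bases with reads on both sides, and almost no exon under 10 bases has reads on both sides.

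How far a microexon could be seen at all went with its length. Among measured exons that share no splice site with another exon, both sides had reads within 4-fold in 3 of 61 exons of 3 to 9 bases, in 62.8% of those of 10 to 15 bases, in 89.4% of those of 16 to 21, in 94.2% of those of 22 to 27, and in 95.6% of longer exons. In 63.9% of the exons of 3 to 9 bases, 1 side had no read. The smallest exons with reads on both sides were 6-base exons of Clip1, Mgat5b and Reln and 9-base exons of Kif3a and Cadps. Of the 757 microexons that had no inclusion read although 20 or more reads spanned their place, 295 were of 3 to 9 bases. Those of the 757 with introns of at least 50 bases on both sides numbered 562, of which 215 were of 3 to 9 bases, and had a median of 82 spanning reads. Because junctions of the shortest exons were seldom in the table, their count of 0 sets no limit on inclusion.

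A second readout, the abundance of whole transcripts, was set beside the junctions. It is the share that transcripts with the microexon take of the summed TPM, a length-corrected abundance, of transcripts with or skipping it, from the deposited estimates on mm10 for GENCODE M4. For 26 exons of 3 to 9 bases with reads on 1 side and splice sites of their own, the median junction inclusion was 5.63% and the median transcript share 62.7%. For Kif3a, a subunit of a microtubule motor, the 9-base exon had a junction inclusion of 6.53% and 8.86% in replicates 1 and 2 and transcript shares of 97.5% and 97.9%. The 6-base exon of Reln, the extracellular guide of neuron positioning, had junction inclusions of 34.8% and 22.4% and transcript shares of 99.2% and 98.5%. The lowest junction values at these lengths thus do not carry over to the transcript readout.

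At 10 to 15 bases the gap was smaller and went both ways. In 41 exons with reads on both sides the medians were 30.8% from junctions and 61.2% from transcripts, with the share more than 10 points higher in 20 exons and more than 10 points lower in 12. The 12-base exon of Erc1, an active zone scaffold, had junction inclusions of 2.22% and 4.15% and transcript shares of 99.3% and 98.4%. Rims1, another active zone scaffold, had the reverse at its 12-base exon, with 98.9% and 100% from junctions and 31.8% and 28.1% from transcripts. At 16 to 21 bases the junction median, 81.9%, lay above the transcript median, 64.8% (95 exons), and at 22 to 27 bases the medians were 73.1% and 58.0% (127 exons). The share was within 10 points of the junction value in 33 of the 95, higher in 13 and lower in 49. Of the 127 it was within 10 points in 64, higher in 17 and lower in 46. Across exons, the rank correlation of the readouts was 0.39 at 10 to 15 bases, 0.56 at 16 to 21 and 0.73 at 22 to 27, given as a description of exons from the same libraries. These comparisons hold only exons whose gene has transcripts of both kinds, which leaves out many of the always included ones. Junction values of microexons under 16 bases are therefore given below as what the junction table shows, with the transcript share beside them where it could be computed and differed by more than 10 points. From 16 bases upwards the share is given for some exons only. A value without a share there is not shown to hold in both readouts.

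**Figure D2:**
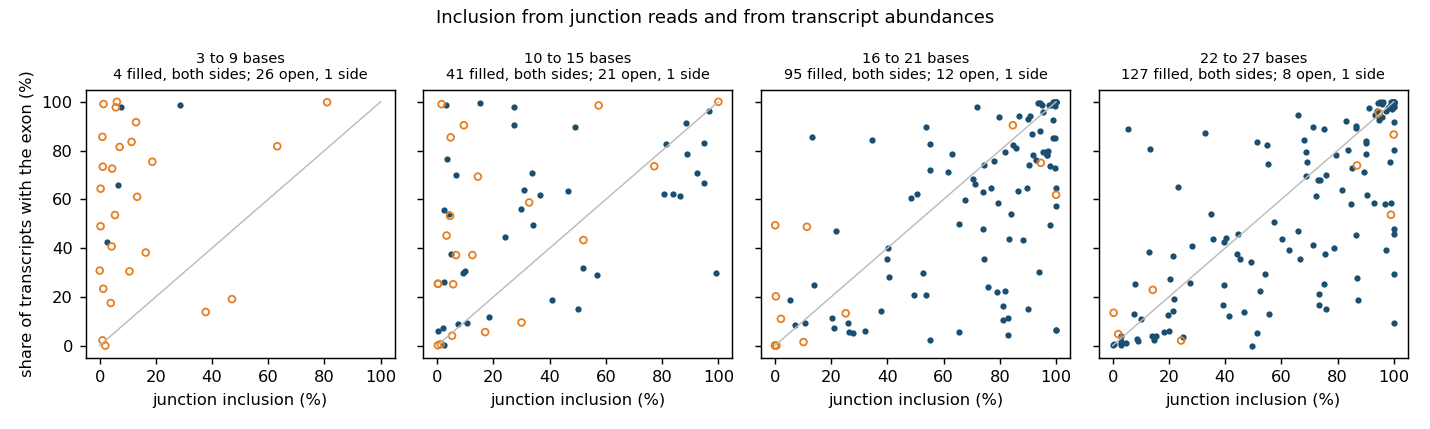
Share of transcripts with the exon (y axis, %, mean of the libraries) against inclusion from junction reads (x axis, %, replicates pooled) in 4 length classes, 1 point per microexon, filled where both sides had reads and open where 1 side did and the exon shares no splice site. The line marks equal values: at 3 to 9 bases most points lie far above it, and at 22 to 27 bases points lie on both sides of it.

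From 10 bases upwards, shorter microexons were more often alternatively spliced in the junction table. With reads on both sides, 37 of 68 exons of 10 to 15 bases (54.4%), 86 of 228 of 16 to 21 bases (37.7%) and 126 of 451 of 22 to 27 bases (27.9%) were alternatively spliced. The shares went on falling in longer exons, to 11.6% at 28 to 50 bases, 5.92% at 51 to 100, 3.98% above 100 and up to 150, and 3.46% above 150 and up to 300. Median inclusion was 35.4% at 10 to 15 bases, 96.5% at 16 to 21 and 99.2% at 22 to 27. At 10 to 15 bases 19 of the 68 were mostly skipped, which touches on the gap between junction and transcript values given above. That gap bears on the 54.4% as well, which rests on the same junction values. The 68 exons also lay in genes of higher level, with a median of 63.0 TPM. It was 25.0 at 16 to 21 bases, 22.2 at 22 to 27 and 20.8 at 28 to 300. How far lost junctions and gene level shape the trend was not tested. Just inside the limit of the rule, 4.88% of exons of 26 bases (2 of 41) and 30.8% of those of 27 bases were alternatively spliced. Just outside it, the share was 12.1% at 28 bases, 10% at 29 and 18.3% at 30. It was thus highest on each side at the length divisible by 3, and at 26 bases it lay below the 3 lengths outside the limit.

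**Figure D3:**
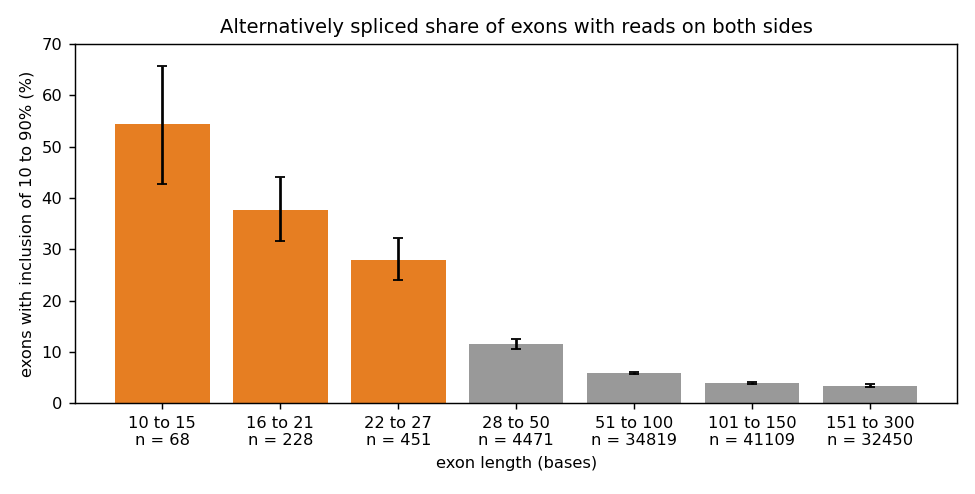
Percent of exons with inclusion of 10 to 90% (y axis) by exon length (x axis), among exons with reads on both sides, with Wilson 95% intervals for counting error and the number of exons under each bar. The 3 orange bars are microexons, from 54.4% at 10 to 15 bases to 27.9% at 22 to 27, and the grey bars are longer exons, all at 11.6% or below. Junction and transcript values often differed at 10 to 15 bases, so that bar holds for the junction table only.

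Most alternatively spliced microexons had a length that keeps the reading frame. Of the 250, 212 (84.8%) had a length divisible by 3, against 58.7% of the 460 mostly included ones and 46.6% of the alternatively spliced longer exons. At 10 to 15 bases it was 35 of 37, near the 64 of all 68 exons of that class and the 11 of 12 mostly included ones. Of 246 alternatively spliced microexons matched to mm10, 215 lay wholly in coding sequence, 11 occurred only in transcripts annotated for nonsense-mediated decay, 13 in non-coding transcripts, 3 in 5′ UTRs and 4 partly in UTRs. Among the coding ones 88.8% were divisible by 3, against 50.8% of coding alternatively spliced exons of 28 to 300 bases. The 38 alternatively spliced microexons with other lengths included the 20-base exon of Srrm3, itself a regulator of microexons, found in a transcript annotated for nonsense-mediated decay and included at 71.4% and 59.3% in replicates 1 and 2. They also included the 17-base exon of Tle1, a transcriptional corepressor, at 73.2% and 75.8%.

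Base composition was near that of exons of 28 to 50 bases and further from that of long ones, and it differed at the 5′ end. GC made up 48.4% of the bases of microexons and of exons of 28 to 50 bases, and 52.6% in exons above 150 and up to 300 bases. A made up 30.2%, 29.5% and 25.5% of bases in these classes, and C 22.1%, 22.3% and 26.1%. The last base was G in 80.1% of all microexons and in 80.1% of the alternatively spliced ones. The opening base was G in 26.4% of alternatively spliced microexons and in 45.6% of mostly included ones, against 40.6% and 49.99% in exons of 28 to 50 bases. The mostly included microexons hold many collagen exons that open with G, such as the 27-base exons of Col18a1 and Col23a1. Their part in this contrast was not tested.

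The genes on 5 lists, drawn up from genes known for microexons or for related roles, held 141 of the 752 microexons with reads on both sides. Because the lists were chosen with such exons in mind, their counts describe those genes and give no independent evidence. The median inclusion was 55.6% in 39 exons of adhesion and guidance genes, 73.0% in 38 of cytoskeleton and signalling genes, 78.2% in 14 of transcription, chromatin and RNA genes, 86.5% in 37 of synapse and membrane traffic genes, and 98.6% in 13 of channel, receptor and calcium release genes. It was 98.9% in the 611 exons of genes on no list, of which 172 were alternatively spliced.

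**Figure D4:**
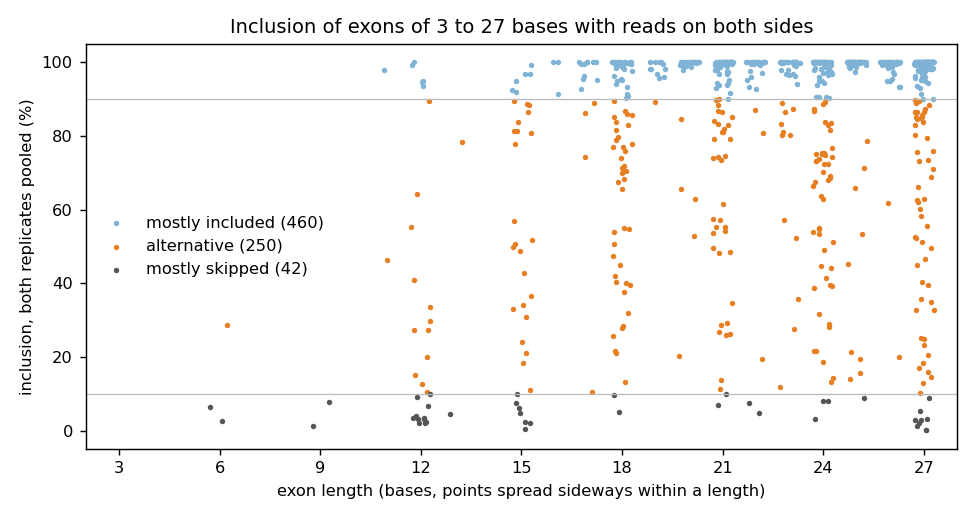
Inclusion of the 752 microexons with reads on both sides (y axis, %, replicates pooled) by length (x axis, bases), 1 point per exon, coloured by class: 460 mostly included, 250 alternatively spliced, 42 mostly skipped. Alternatively spliced exons gather at 12, 15, 18, 21, 24 and 27 bases, and the lengths between hold mostly included exons.

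Adhesion and guidance genes had 26 alternatively spliced, 9 mostly included and 4 mostly skipped microexons. Neurexins are presynaptic adhesion proteins whose splice inserts are known to tune their choice of partners. Nrxn2 had a 24-base exon at 65.04% and 68.4% in replicates 1 and 2, which shares a splice site with another annotated exon, and a 27-base exon at 88.2% and 81.5%. At the 24-base exon replicate 1 had 430 upstream, 288 downstream and 193 skipping reads. A 27-base exon of Nrxn3 that shares a splice site was at 46.8% and 55.2% [43.3 to 59.1], below both values of the 27-base exon of Nrxn2. At the 18-base exons Nrxn2 stood at 98.7% and 99.1% and Nrxn3 at 93.3% and 95.3%.

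Teneurins and latrophilins bind each other across the synapse, and small inserts in both are known to affect that binding. The 27-base teneurin exon was at 27.5% and 40.0% in Tenm4 and at 100% and 90.9% in Tenm3, with 1 skipping read in all for Tenm3. Tenm4 rested on 10 upstream reads in each replicate, and its transcript shares were 87.0% and 87.2%. The 21-base teneurin exon was high in each of the 4 genes, at 100% and 94.5% in Tenm1, 93.3% and 88.2% in Tenm2, 100% in both replicates of Tenm3 and 85.2% in both of Tenm4. Between the latrophilins, the 15-base exon was at 22.8% and 13.99% in Adgrl1 [15.04 to 22.1] and at 24.4% and 39.4% in Adgrl3 [17.0 to 47.6], where the transcript shares were 65.4% and 62.5%. The replicates of Adgrl3 had 17 and 10 skipping reads, and the intervals of the 2 genes overlap. The 18-base exon of Adgrl1, in turn, was at 99.3% and 99.6%, while those of Adgrl2 and Adgrl3 lay between 21.01% and 25.9% in each replicate.

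Receptor tyrosine phosphatases of the Ptprd family carry mini-exons in their extracellular domains that are known to set which postsynaptic partners they bind. In Ptprd, the exon of 18 bases was at 74.5% and 66.7%, that of 27 bases at 57.3% and 53.8%, and that of 12 bases between them in the gene's order on chromosome 4 at 33.9% and 33.3%, with transcript shares of 71.4% and 69.8% at the 12-base exon. A 12-base and a 15-base exon of Ptprd share their 3′ end and so also share reads, and were at 2.62% and 1.55% and at 2.62% and 1.89%. Whether this pair lies in the extracellular part was not examined. The matching 12-base exon of Ptprs was at 51.6% and 59.6%. Single microexons of Ptprf (27 bases, 64.9% and 60.7%) and of Ptprk, a receptor tyrosine phosphatase outside that family (18 bases, 71.2% and 65.7%), were alternatively spliced as well.

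Agrin (Agrn) organises the neuromuscular junction and occurs in brain in forms with small inserts. Its 24-base exon, one of the z inserts that give agrin its activity on acetylcholine receptor clusters, was at 55.4% and 55.0%. Its 12-base exon, the y insert that binds heparin, was at 29.1% and 30.4%, with transcript shares of 56.3% and 55.9%. Neurofascin (Nfasc), which holds the axon initial segment and node of Ranvier, had a 15-base exon at 76.8% and 79.0% and an 18-base exon at 58.1% and 51.4%. The neural cell adhesion molecule Ncam1 had a 15-base exon that was mostly skipped, at 2.62% and 1.85%, with transcript shares of 25.1% and 27.3%. Nrcam, a relative of neurofascin, had an 18-base exon on the edge of the class, at 10.7% and 8.78%.

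Cytoskeleton and signalling genes had 26 alternatively spliced, 9 mostly included and 3 mostly skipped microexons. The tyrosine kinase Src has an 18-base exon, known as N1, that lengthens a loop of its SH3 domain in neurons. It had 141 upstream, 140 downstream and 70 skipping reads in replicate 1 and 119, 126 and 56 in replicate 2, for inclusions of 66.7% and 68.6% [62.7 to 72.2]. The replicates were closer than the width of that interval, and transcripts of the gene without the exon were present in both.

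Kif1a, a kinesin that carries synaptic vesicle precursors, had 4 microexons with reads on both sides, at levels far apart. An 18-base exon had 650 and 577 upstream reads and no skipping read. A 27-base exon further along was at 72.2% and 74.97%. Of the 2 exons shown above with the same neighbouring exon sequences, the 24-base exon was at 14.9% and 11.7% and the 27-base exon at 14.4% and 14.9%. Reads counted as skipping outnumbered inclusion reads at both, with 1838 and 1763 reads at the 24-base exon and 1731 and 1611 at the 27-base exon. By the rule used, a junction of either exon that spans the other from a shared neighbour counts as skipping that other exon. Each skipping count may therefore hold inclusion reads of the other exon, and is not a count of transcripts that lack both. The transcript estimates put the 24-base exon much higher, at 79.5% and 82.2%, and the 27-base exon at 2.40% and 2.25%.

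Clasp2 and Clasp1 stabilise microtubule plus ends. The 3 alternatively spliced microexons of Clasp2 stood at 78.4% and 74.9% (24 bases), 86.7% and 84.9% (18 bases) and 70.2% and 64.9% (24 bases), and 2 others, both of 27 bases, at 2.50% or below in each replicate. The exons of Clasp1 of 27 and 24 bases were at 87.8% and 91.4% and at 73.3% and 71.6%. Macf1, a giant linker of actin and microtubules, had an 18-base exon at 84.5% and 87.3%, and its relative Dst had one that matches it in 16 of 18 bases at 98.4% and 99.2%. A 12-base and a 15-base exon of Macf1 share an end and so also share reads, and were at 44.2% and 36.9% and at 38.1% and 35.1%. Their transcript shares were 20.8% and 16.3% and 63.2% and 60.2%. The focal adhesion kinase Ptk2 had exons of 21 and 18 bases at 64.9% and 48.4% and at 47.9% and 42.2%, and the 21-base exon had 71 and 82 skipping reads. The actin regulator Abi1 had a 15-base exon at 79.7% and 83.8%, and Abi2 an 18-base exon at 61.1% and 70.1%. Spectrin alpha (Sptan1) had its 24-base exon at 100% in both replicates, its 18-base exon at 99.9% in both and its 15-base exon at 94.9% in both.

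Synapse and membrane traffic genes had 14 alternatively spliced, 18 mostly included and 5 mostly skipped microexons. The postsynaptic scaffold Shank1 had exons of 27 and 24 bases at 53.7% and 50.96% and at 41.7% and 36.9%, while a 24-base exon of Shank3 was at 89.1% and 91.6%. Picalm and Bin1 are endocytic adaptors that bend or bind membranes, and their 24-base exons were at 72.3% and 77.4% and at 67.3% and 60.5%. Cask, a presynaptic scaffold kinase, had an 18-base exon at 75.8% and 76.0%, with transcript shares of 26.9% and 21.2%. Ergic3, a cargo receptor of the early secretory pathway, had a 15-base exon at 23.9% and 24.4%, with transcript shares of 45.5% and 43.7%. Microexons of the endocytic protein Amph (2 exons of 24 bases) and of the active zone organiser Ppfia4 (27 bases) were at 99.8% or above in both replicates. The membrane-pinching GTPase Dnm1 had reads on both sides at a pair of 12-base exons, at 95.8% and 90.6% and at 94.6% and 95.5%, the latter with transcript shares of 82.3% and 83.9%. In its relative Dnm2 a 12-base exon was at 9.33% and 4.35%, with transcript shares of 69.9% and 69.8%.

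Transcription, chromatin and RNA genes had 9 alternatively spliced, 3 mostly included and 2 mostly skipped microexons. Kdm1a is a histone demethylase whose 12-base exon is known from neurons, and it was at 10.1% and 10.8% [6.83 to 15.2], just inside the alternatively spliced class. Replicate 1 had 3 upstream, 19 downstream and 98 skipping reads and replicate 2 had 8, 18 and 107, and the transcript shares, 10.1% and 8.29%, were within 3 points of the junction values. The Cpeb proteins bind cytoplasmic polyadenylation elements in mRNA, and the inclusion of their alike 24-base exons ran from Cpeb2 at 97.5% and 96.4% through Cpeb3 at 87.2% and 80.3% to Cpeb4 at 74.1% and 71.9%. The replicates of the 3 genes did not overlap. The Mef2 transcription factors drive activity-dependent genes in neurons, and their exons in the transactivation domain were at 89.0% and 83.8% in Mef2a (24 bases), 91.5% and 89.5% in Mef2c (24 bases) and 88.1% and 92.7% in Mef2d (21 bases). The replicate values of Mef2d overlapped those of both other genes, and those of Mef2a lay below those of Mef2c. The translation factors Eif4g1 and Eif4g3, scaffolds of the cap-binding complex, had 21-base exons at 80.4% and 78.0% and at 75.9% and 71.7%. Phf21a, a histone reader that works in the same complex as Kdm1a, had a 23-base exon at 59.4% and 55.6%.

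Channel, receptor and calcium release genes had 3 alternatively spliced and 10 mostly included microexons and no mostly skipped one. The alternatively spliced ones were the 20-base exons of the calcium channel subunits Cacnb1 (85.6% and 83.8%) and Cacnb2 (50% and 55.7%) and a 21-base exon of the sodium-calcium exchanger Slc8a1 (31.6% and 37.7%, from 13 and 17 upstream reads). The 20-base exons of Cacnb3 and Cacnb4, in turn, were at 99.6% and 97.6% and at 99.5% and 98.3%. The 4 exons occupy the same place in a gene family, and each pair but that of Cacnb3 and Cacnb4 was at least 75% identical.

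**Figure D5:**
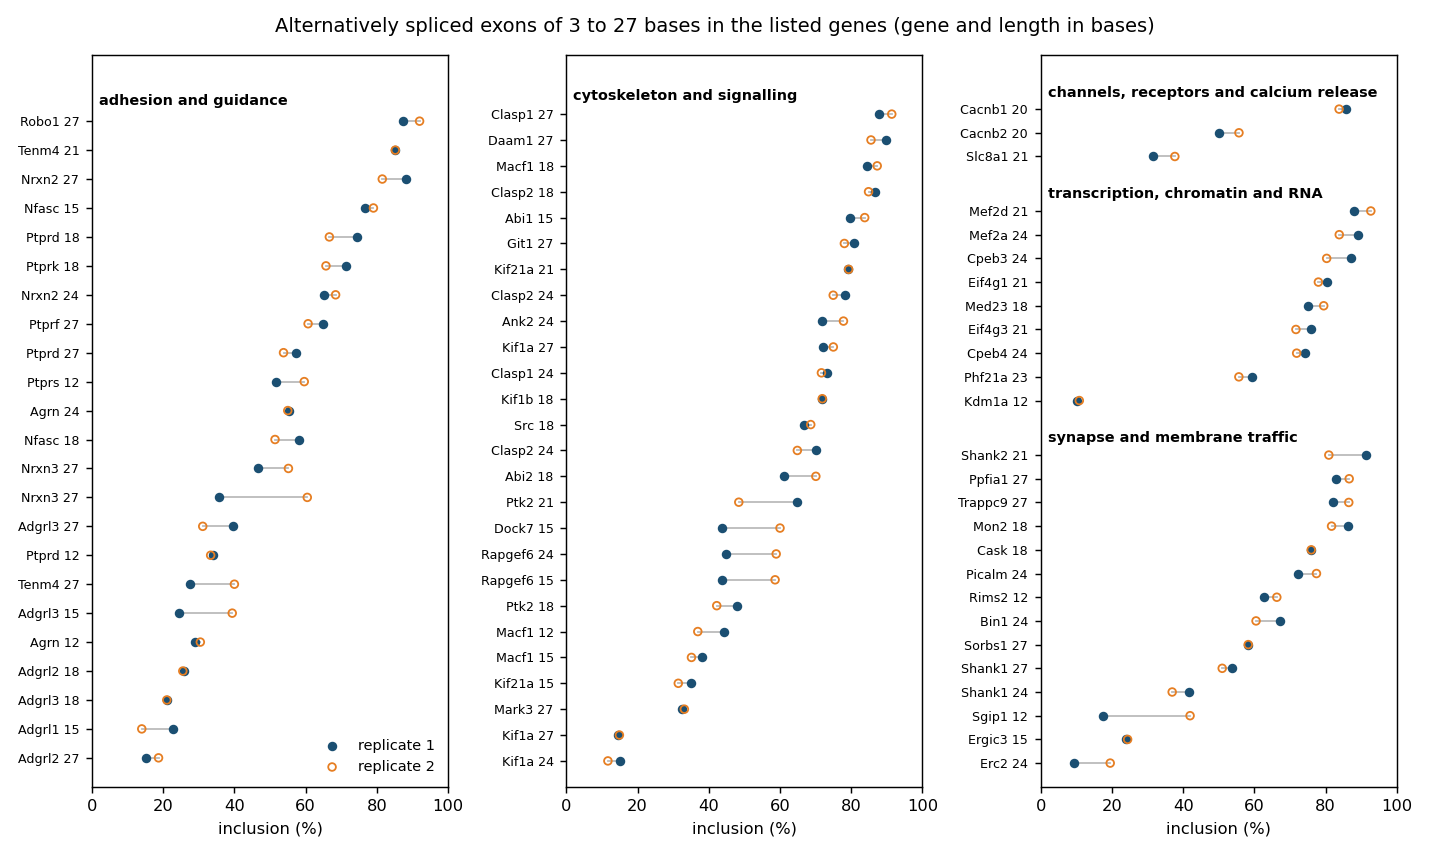
Inclusion (x axis, %) of the alternatively spliced microexons with reads on both sides in genes of the 5 lists (y axis, gene and exon length in bases; 1 gene is not drawn), with replicate 1 as filled and replicate 2 as open points joined by a line. The lines are short for most exons, such as Kif21a of 21 bases at 79.2% and 79.3%, and longest for a 27-base exon of Nrxn3 at 35.7% and 60.5%.

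Outside the lists, the alternatively spliced microexons with most reads were in genes of various functions. Clathrin heavy chain (Cltc), which forms the coat of endocytic vesicles, had a 21-base exon at 45.7% and 50.9% [47.5 to 49.7] from 1907 and 2112 skipping reads. Uchl1, an abundant neuronal deubiquitinating enzyme, had a 12-base exon at 12.2% and 13.3% [11.95 to 13.6], with 2711 and 2953 skipping reads. That interval covers counting error only. No transcript share is given here for the Uchl1 exon. Its value is what the junction table shows and may not be its level in transcripts. At 10 to 15 bases the transcript share was more than 10 points above the junction value in 20 of 41 exons and below it in 12. Gnas, the stimulatory G protein alpha subunit, had a 24-base exon at 68.3% and 69.0%, with transcript shares of 68.6% and 70.9%. The matched mm10 exon lies only in a transcript that GENCODE M21 calls non-coding, and the exon shares a splice site with another. Sh3glb2, which binds and curves membranes, had a 15-base exon at 89.3% and 87.6%. Dctn1, the largest subunit of the dynein activator dynactin, had 4 microexons with reads on both sides. Its 15-base exon was at 86.9% and 86.2%, with transcript shares of 61.7% and 60.6%. A 21-base exon was at 85.9% and 88.0%, and an 18-base and another 21-base exon were above 90% in both replicates. Ewsr1, an RNA-binding protein, had an 18-base exon at 40.9% and 38.2%. Mapk8ip3, a scaffold that links cargo to motors, had a 24-base exon at 46.6% and 51.6%, and Aifm3, a mitochondrial protein, a 21-base exon at 83.6% and 80.2%, with transcript shares of 24.2% and 20.6%.

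At 3 to 9 bases the alternatively spliced exons with most reads lacked support on 1 side. Those of Tle2 (3 bases), Iffo1 (9 bases), Scd3 (5 bases) and Mpc1 (4 bases) each share a splice site with another annotated exon. Tle2, for example, had 1487 and 1430 downstream reads and none upstream. They are given no inclusion value here for that reason. Among the mostly skipped exons with most reads, the 27-base exons of Atp1b2 (0.176% and 0.0472%, with 6224 and 6349 skipping reads) and Kif5c (0.413% and 0.279%, with 1205 and 1071) had reads on both sides. Those of Atp1b2 (21 bases), Psap (9 bases) and Snap47 (20 bases) did not, and for Psap the transcript shares were 63.5% and 65.2%.

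Some genes held more than 1 alternatively spliced microexon. Of 218 genes with such an exon read on both sides, 24 had at least 2 and 7 had at least 3, among them BC051142, Macf1, Clasp2, Kif1a, Ptprd and Adgrl3. The 3 of Macf1 include the 12-base and 15-base exons that share an end and reads. Exons of 1 gene share its transcripts and are not independent. BC051142, with 4, was at a gene level of 1.82 and 2.2 TPM, and its exons rested on few reads, such as 7 and 6 skipping reads at 1 of them.

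Between genes, exons of equal length were seldom alike. Of 30769 pairs of equal length from different genes, among microexons of 12 bases or more outside chromosome 18, 55 pairs were at least 75% identical, and most of them were pairs of related genes. In some the levels were close, as in Mink1 and Tnik, kinases with 24-base exons at 75.2% each. In others they were far apart, as in Rapgef2, which had no skipping read at its 24-base exon, and Rapgef6, at 44.9% and 58.9%, although 23 of 24 bases agree. The 24-base exons of Gon4l and 5830417I10Rik were identical, as were 22 of 23 bases between Trim12a and Trim12c, so reads of these genes cannot be told apart with certainty.

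The replicates lay close together over the whole set and further apart at alternatively spliced exons. In 531 microexons with reads on both sides and at least 50 reads in each replicate, inclusion differed by a median of 0.812 percentage points. In 18 of them (3.39%) it differed by 10 points or more, 9 being higher in each replicate, against 0.418% of longer exons. Among alternatively spliced exons alone the shares were 9.09% (17 of 187) for microexons and 9.53% for longer exons. Their median differences were 3.79 and 3.42 points, with 95th percentiles of 14.5 and 12.4 points. The largest differences were those of Nrxn3 (27 bases, 35.7% and 60.5%, from 71 and 34 skipping reads), Gon4l (24 bases, 50.4% and 31.1%), Mia2 (27 bases, 30.3% and 47.9%), Myh14 (24 bases, 60.0% and 77.4%) and Dlg1 (21 bases, 51.05% and 34.4%), the last without balanced reads on its sides. With 1 library on each side, no test of these differences was possible.

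The tissue matched its label, with the neuron markers Snap25 at 1883 ± 36.4 and Gabra6 at 303 ± 47.1 TPM and the glial marker Mbp at 3921 ± 435 TPM (mean ± SD, n = 2), against 0.02 TPM for the liver gene Alb and 0.06 for the muscle gene Ckm. Among regulators, Srrm3 stood at 81.9 ± 5.40 TPM, Srrm4 at 17.8 ± 0.55, Rbfox1 at 103 ± 10.9, Rbfox2 at 78.4 ± 2.40, Rbfox3 at 118 ± 20.3, Ptbp1 at 42.9 ± 3.04, Ptbp2 at 37.6 ± 2.69, Nova1 at 23.5 ± 0.47 and Nova2 at 9.05 ± 0.93. Neurons and glia were thus both present, and an intermediate inclusion in such a mixture cannot be divided into cells that include an exon and cells that skip it, just as fewer cells of a type and less RNA per cell cannot be told apart.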

How the data were processed

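The 2 libraries form 1 group, so values are given per replicate and no condition was tested. Members and gene lists were chosen with earlier results of these data known. The deposited junction table (mm9) gives the authors' read counts per junction, both replicates summed, with the counts of replicates 1 and 2 in its names. These numbers name no library of the labels. It also holds a fraction, the authors' irreproducibility value (at most 0.1 in an alternative). The deposited exon table gives Ensembl 65 exons with the authors' RPKM, which was not used as a level. Gene and transcript TPM on mm10 (GENCODE M4) were made by the authors from transcriptome alignments, per the file headers and index files. No source used here names the aligner.

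Inclusion was computed from the junction counts as described with the results, in Python 3.11.15 with pandas 2.3.3, numpy 2.4.6 and scipy 1.17.1, and tested on simulated junctions. Skipping junctions are those that span the exon and share a splice site with one of its inclusion junctions. Transcript shares used M4 transcripts found in M21 with equal length and a summed TPM of at least 1. Total junction reads were 39145559 and 38232764. Named exons are those of listed genes, the 5 alternatively spliced with most reads in each of 4 length classes, the 5 largest replicate differences and the 5 mostly skipped with most reads, with related genes beside them. Exons such as those of Clip1, Mgat5b, Reln, Kif3a, Srrm3, Tle1, Mink1, Tnik and Rapgef2 were chosen after their values were seen. A planned count of TGC in the upstream intron was not run, because it needs genome sequence, which was not used here. Other read minimums, class bounds, skipping rules, sides and single replicates were tried as alternatives. A few genes that the rule names are not reported here.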

Additional observations from a re-analysis of the deposited data

How the results depend on the processing

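No paired analysis was possible because there is a single group of 2 libraries. Of 57 recomputed values for 6 results, 32 counted as unchanged and 25 as moved. The limit was the counting interval for the share divisible by 3 and the replicate spread for the median inclusion. All other results, the alternatively spliced shares among them, were allowed to change up to 1.5-fold. By that limit the alternatively spliced microexon shares of 33.2% (reads on both sides) and 32.7% (lower of the 2 sides) counted as unchanged. Both lie outside the Wilson interval of the main 26.1%, which is 23.8 to 28.6%. The cause of the 25 moves was not tested except where the setting's construction shows it. Counting all same-strand junctions that span an exon as skipping put the alternatively spliced share at 58.9% of microexons and 49.4% of longer exons, the median inclusion at 67.2% and the median replicate difference at 3.32 points (main values 26.1%, 5.31%, 98.8% and 0.436 points), so the size of the gap between microexons and longer exons depends on that rule. With bounds of 20 to 80% the shares were 16.6% and 3.23%. Taking the lower of the 2 sides left 825 measured microexons, a median inclusion of 94.4% and a difference of 1.09 points. Junctions with an irreproducibility value of at most 0.1 gave a median of 100% and a difference of 0 points, and exons with introns of at least 50 bases gave 97.1% and 0.685 points. A minimum of 10 reads gave a median of 99.0% and one of 50 reads 98.5%. The stricter set added after the data were seen, with reads on both sides, held 752 microexons, with a median of 97.3%, a share divisible by 3 of 69.1% (main 62.0%) and a difference of 0.774 points, and without shared splice sites 607, 97.2%, 72.3% and 0.771 points. Leaving out each replicate in turn gave 1136 to 1150 measured microexons, 26.3% to 26.7% alternatively spliced and medians of 98.92% to 98.95%. The share of alternatively spliced microexons was above that of longer exons under every setting run. Reads limit exons under 10 bases most: of those with splice sites of their own, 3 of 61 were seen on both sides, so few of their inclusion values rest on both junctions.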

Other observations

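The junction table also held pairs of junctions that may mark microexons that Ensembl 65 lacks. A search, added after the data were seen, took pairs of canonical junctions 3 to 27 bases apart with at least 20 reads each, an irreproducibility value of at most 0.1, counts within 4-fold, annotated outer splice sites, a junction that skips the interval and no annotated exon on it. It found 54 intervals of 12 bases or more, of which 41 (75.9%) had a length divisible by 3, 40 had an inclusion of 10 to 90%, and 25 matched an exon of GENCODE M21 in gene and lengths. Junctions were counted singly, so no read was shown to cross both junctions of a pair, and the intervals are candidates. Intervals of 18 and 21 bases in Trappc8 share an end and its reads. The need for a skipping junction shuts out exons that are never skipped, so the share that is alternatively spliced is not comparable with that of annotated microexons. Ptprs, the relative of Ptprd described above, had such an interval of 27 bases at 92.4% and 88.2% in replicates 1 and 2. Tmem184b had one of 21 bases at 79.3% and 77.4%, and Ppp6r3, a regulatory subunit of a protein phosphatase, one of 18 bases at 63.0% and 63.7%. Ank3, the ankyrin of the axon initial segment, had one of 27 bases at 79.2% and 73.9% and one of 24 bases at 48.1% and 54.0%. Srrm4, a regulator of microexons, had one of 16 bases at 39.2% with both replicates pooled. All of these match M21 exons. Cd99l2 (18 bases, 36.7% and 46.1%), Ash2l (18 bases, 45.4% and 42.9%) and Msi2 (24 bases, 13.0% and 12.7%) had intervals that match none there.

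The deposited RPKM of the exons followed the junctions less closely in microexons than in longer exons. Over 752 microexons with reads on both sides, the rank correlation of RPKM with inclusion reads was 0.73, against 0.88 over 112849 longer exons, and 9 of the 752 were listed at 0 in both replicates, against 33 of the longer exons. These are correlations across exons of the same libraries.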
